A study of Homo sapiens with 4 samples.

Results

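The set described here is made of 48 genes of DNA replication and of entry into S phase, measured by RNA sequencing in U87 cells, an established human glioma line, after knockdown of PTPRN. PTPRN encodes a member of the receptor-type protein tyrosine phosphatase family, of secretory granules in neuroendocrine cells. Its phosphatase domain is inactive, per the paper. Members were taken by gene symbol from the deposited gene table, and all 48 were found among the 19314 genes listed and had a value, as did 16595 genes in all. The members fall into 6 genes of the MCM2-7 helicase core, 5 of licensing, 8 of origin firing, 6 of the clamp and its loader, 9 of the polymerases, 5 of the lagging strand and single-strand binding, 4 of nucleotide supply and 5 regulators of the G1/S transition.

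Each group held 2 libraries. The labels give the genotype PTPRN knockdown to the libraries titled PTP2, and the others are the scrambled control, titled SCR. Per the study's methods, the hairpins were carried by the pLKO.1 vector and the control vector held a scrambled sequence. The study's supplement lists 2 hairpins against PTPRN, and the labels do not name the hairpin behind the PTP2 libraries. All knockdown libraries share that title, and effects of the hairpin other than loss of PTPRN were not tested. Nothing says whether the libraries of a group came from separate cultures. The p-values below therefore measure the spread between these libraries, which may be technical. The growth protocol given with the samples names hCMEC/D3, a brain endothelial line, whereas the cell line label says U87.

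Replication is prepared in G1, when the origin recognition complex with CDC6 and CDT1 loads the MCM2-7 helicase onto DNA. The kinase of CDC7 and DBF4 and the cyclin E kinase then start firing, CDC45 and GINS join the helicase, and polymerases copy DNA behind it with the sliding clamp PCNA, which replication factor C loads. Ribonucleotide reductase, thymidylate synthase and thymidine kinase provide the nucleotides. Many of these genes are transcribed together at the G1/S transition by E2F factors, which the RB family restrains, and their RNA is therefore widely used as a mark of dividing cells.

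In the knockdown libraries PTPRN itself was at 12.09 and 11.68 FPKM (fragments per kilobase of transcript, scaled to library depth), against 84.84 and 85.02 in the SCR libraries, a level 0.14 times that of the control. The depth, estimated from the step between low FPKM values, was between 18100000 and 19800000 reads per library, at which the members had between 87 and 4610 estimated reads each. Pearson correlation of log2 values was at least 0.9986 within groups and at most 0.9617 between them. The 10 highest genes took 8.374% to 8.61% of all FPKM in the knockdown libraries and 12.24% to 12.331% in the SCR libraries. Of the 10 endothelial markers, 9 had a value. Their summed level was 3.98 to 4.42 FPKM in the knockdown and 4.66 FPKM in both SCR libraries, with members that went opposite ways. PECAM1 (2.39 and 2.5 FPKM in SCR, 1.21 and 1.26 in the knockdown) and VWF (0.98 and 0.93, then 0.06 and 0.05) fell, KDR, TEK and ERG rose to at most 1.08 FPKM, and CDH5, CLDN5, TIE1 and ESAM, at 0.34 FPKM or less, did not pass the test. Among markers of U87 and glioma, VIM (1997.7 and 1918.05 FPKM in SCR, 4766.13 and 4564.5 in the knockdown) and CD44 (151.78 and 151.56, then 315.84 and 313.53) were abundant and rose, whereas NES fell from 12.96 and 14.24 to 3.12 and 3.39 FPKM (log2 fold change -1.78, adjusted p = 0.000407, limma). OLIG2 was at 0.50 to 1.15 FPKM and rose, GFAP fell at 0.55 FPKM or less, and SOX2 and S100B, at 0.27 FPKM or less, did not pass the test. The part of these marker changes in the results below was not tested. CDKN2A, which is known to be deleted in U87, was at 0.05 FPKM or less.

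Most of the replication genes were higher in the knockdown libraries. At an adjusted p of at most 0.05 (limma on log2(FPKM + 1), Benjamini-Hochberg over all genes tested), 42 of the 48 members rose, against 30.8% of all genes tested. With any 1 library left out, 36 to 37 rose. RFC1 and POLD2 fell, against 27.1% of all genes, and GMNN, POLD1, LIG1 and CCNE1 did not pass the test. The share that rose was 87.5% of the members, and among all genes whose mean FPKM reached 1 it was 41.1%. The members' median log2 fold change was 0.73, against 0.01 over all genes tested and 0.06 over those whose mean FPKM reached 1. The summed FPKM of the members was 1391 and 1374.26 in the knockdown libraries and 886.43 and 877.63 in the SCR libraries, 1.57 times as high. In bulk RNA, more cells in S phase and more of each transcript per cell cannot be told apart. The paper reports less proliferation of U87 cells after PTPRN knockdown, by a cell counting kit read as absorbance and by colony formation. After knockdown it also reports a lower frequency of glioma stem cells and smaller xenograft tumors in mice. How those assays relate to the RNA levels given here was not tested.

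The changes were moderate in size. Past a 2-fold change on the log2(FPKM + 1) scale together with an adjusted p of at most 0.001 (limma), 10 members rose, MCM7, CDT1, GINS4, MCM10, RFC4, RFC5, PRIM1, RPA2, RRM2 and E2F1, against 2.63% of all genes. By the same thresholds 0 members fell, against 4.06% of all genes, and at an unadjusted p under 0.05 the members that fell were RFC1, POLD2 and LIG1. With a pseudocount of 0.1, or with any 1 library left out, none of the 10 passed the stricter limits, and no gene of the table did. RFC3 (log2 fold change 1.11, adjusted p = 0.0013 by limma) and PRIM2 (1.05, 0.00137) were just outside the limits. Both knockdown libraries lay above both SCR libraries for 43 members, against 39.7% of all genes, and below them for RFC1, POLD2, LIG1 and CCNE1, against 35.8%. The libraries of the groups overlapped for GMNN alone.

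**Figure D1:**
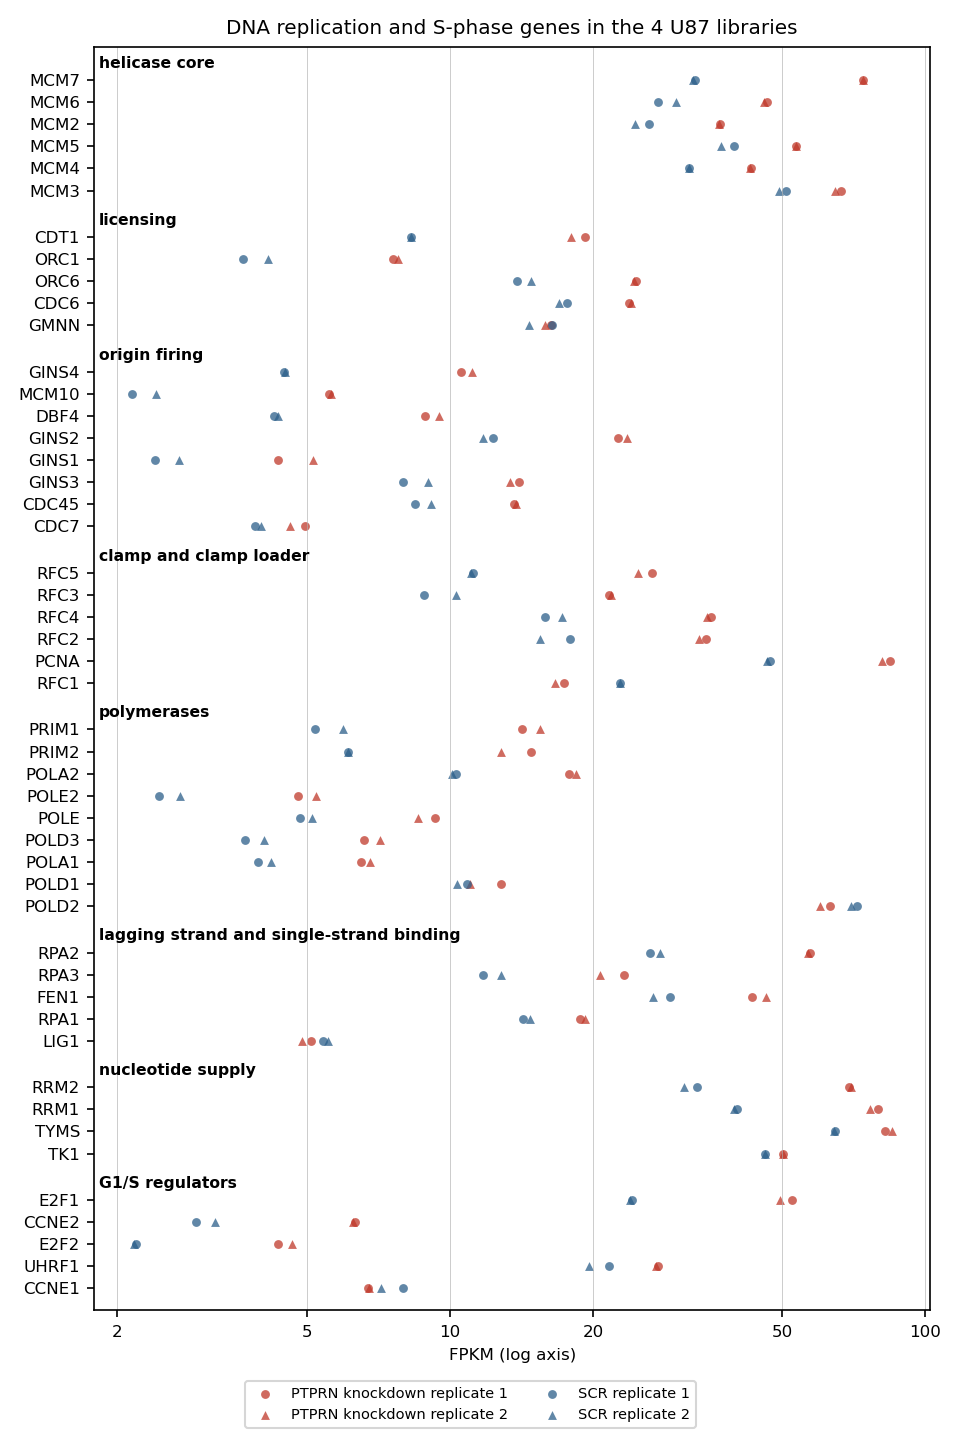
FPKM of each of the 48 members in each library (log axis), grouped by role, with the PTPRN knockdown libraries in red and the SCR libraries in blue. Red points lie to the right of blue points for 43 members, to the left for RFC1, POLD2, LIG1 and CCNE1, and among them for GMNN.

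**Figure D2:**
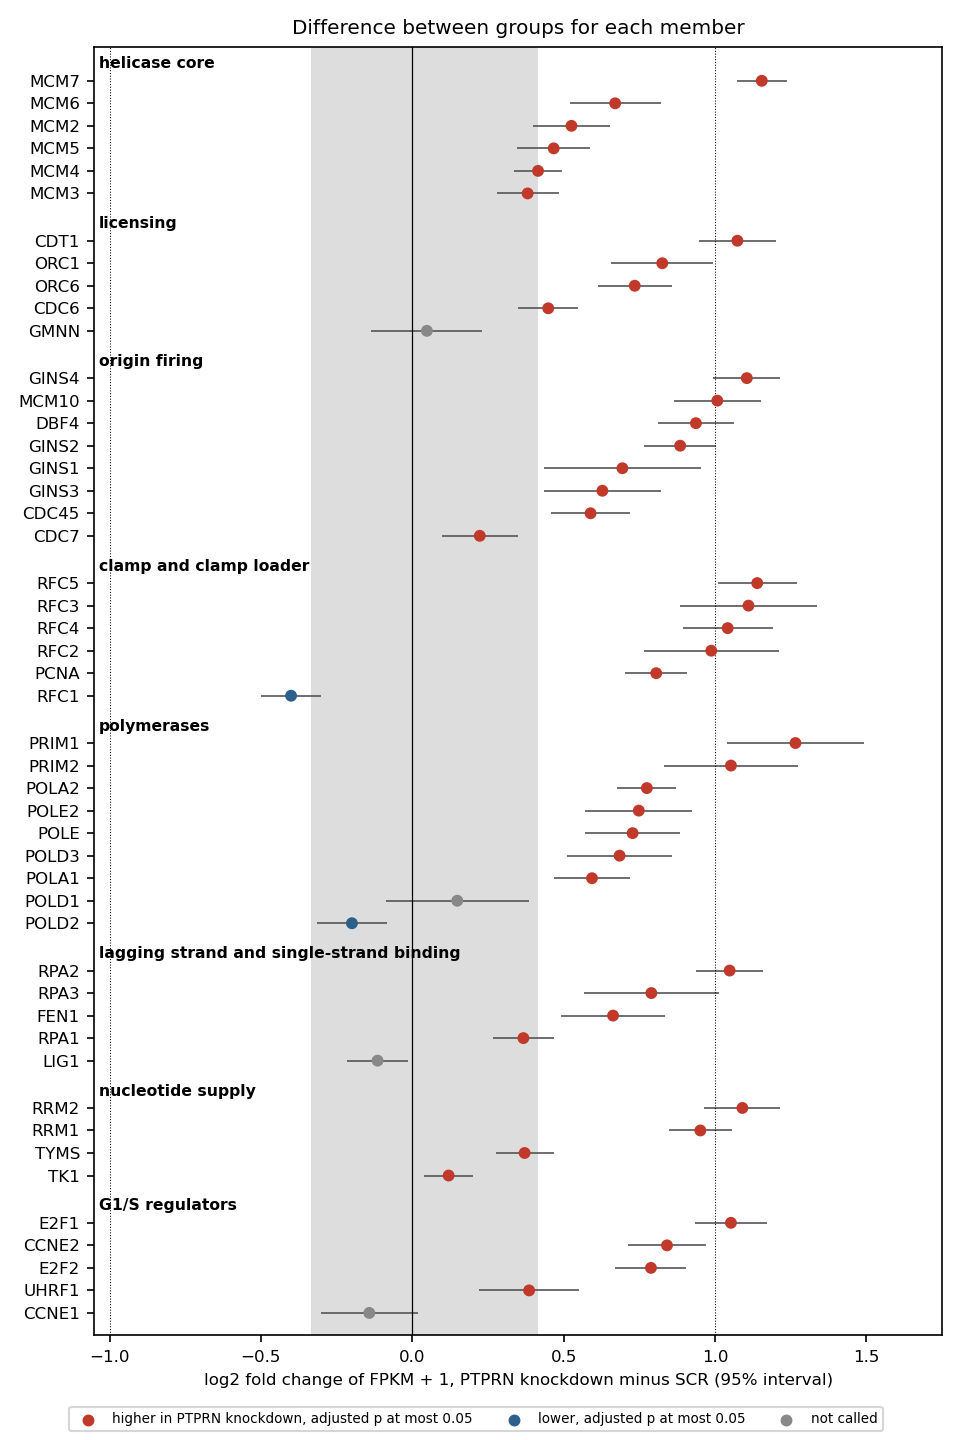
Log2 fold change of FPKM + 1, PTPRN knockdown minus SCR, with the 95% interval of the limma fit, in red for the 42 members that rose, in blue for the 2 that fell and in grey for the 4 not called. The grey band holds the middle of all genes whose mean FPKM reached 1, from the lower to the upper quartile (-0.33 to 0.41), and the dotted lines mark a fold change of 2.

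All 6 subunits of the MCM2-7 helicase, the ring that unwinds DNA ahead of the polymerases, rose, with MCM7 apart from its partners. MCM7 (chromosome 7, 100092728 to 100101940, minus strand, positions on GRCh38 as deposited here and below) was at 73.9 and 73.83 FPKM in the knockdown libraries and at 32.83 and 32.43 in the SCR libraries. Its level in both knockdown libraries was more than that of either SCR library by a wide margin, 73.87 ± 0.0495 against 32.63 ± 0.283 (SD, n = 2 each), or 2.26 times as high. The log2 fold change was 1.15 (SE 0.0286, adjusted p = 0.000271, limma), the smallest adjusted p among the members. MCM3, the subunit with the highest mean level, was at 66.36 and 64.54 FPKM against 50.84 and 49.21, a log2 fold change of 0.38 (SE 0.0357, adjusted p = 0.00242, limma), with no overlap between the groups. The changes of the other subunits ran from 0.42 in MCM4 to 0.67 in MCM6, with MCM5 at 0.47 and MCM2 at 0.53. The group's median was 0.50. MCM7 overlaps AP4M1 on the opposite strand, and 9.82% of the 50-base stretches of its longest transcript also occur in that gene, while 27.2% of those of MCM2 occur in another gene model.

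Licensing genes rose with the exception of geminin. CDT1 (chromosome 16, 88803778 to 88809258, plus strand), the factor that brings the helicase to the origin, was at 19.2 and 17.94 FPKM in the knockdown libraries and at 8.29 in both SCR libraries. The groups were far apart, with a log2 fold change of 1.07 (SE 0.044, adjusted p = 0.000478, limma). CDC6, the ATPase that works with CDT1 and had the highest mean level of the group, was at 23.82 and 24.03 FPKM against 17.6 and 16.92, a log2 fold change of 0.45 (SE 0.0344, adjusted p = 0.00152, limma) with no overlap. ORC1 (0.83) and ORC6 (0.73), subunits of the origin recognition complex, rose as well. Of the 50-base stretches of ORC6, 26.2% also occur in other genes. GMNN encodes geminin, the inhibitor that binds CDT1 in S and G2 phase. It was at 16.31 and 15.83 FPKM in the knockdown libraries and at 16.4 and 14.66 in the SCR libraries. These values overlapped, and the difference of 0.05 (95% interval -0.14 to 0.23, adjusted p = 0.578, limma) was not resolved.

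Every one of the 8 genes of origin firing rose, though CDC7 did not with GC and length trends removed. GINS4 (4 subunits make up GINS, which links CDC45 to the MCM ring) was at 10.53 and 11.12 FPKM in the knockdown libraries and at 4.48 and 4.51 in the SCR libraries, a log2 fold change of 1.11 (SE 0.0385, adjusted p = 0.000393, limma). MCM10 (chromosome 10, 13161554 to 13211104, plus strand), a factor needed to activate the helicase, was lower in all libraries, at 5.57 and 5.61 FPKM against 2.15 and 2.41, and changed by 1.01 (SE 0.0505, adjusted p = 0.000652, limma). Neither gene had overlapping groups. GINS2, which had the highest mean level here, was at 22.62 and 23.52 FPKM against 12.33 and 11.74, again without overlap, a change of 0.89 (adjusted p = 0.000591, limma). GINS1 (0.69), GINS3 (0.63) and CDC45 (0.59), the helicase cofactor, rose by less than GINS2. The kinase of CDC7 and DBF4 was uneven. Its regulatory subunit DBF4 was at 8.85 and 9.49 FPKM against 4.27 and 4.35, a change of 0.94 (SE 0.0442, adjusted p = 0.000591, limma). CDC7, the catalytic subunit, was at 4.96 and 4.61 FPKM against 3.9 and 4.01 and changed by 0.22 (SE 0.0441, adjusted p = 0.0181, limma). With a single library left out the change of CDC7 ran from 0.18 to 0.27, and with GC and length trends removed it was -0.03. The knockdown libraries were above the SCR libraries for both genes, by a wide gap for DBF4 and a narrow one for CDC7. Of the stretches of the DBF4 transcript, 20.2% also occur in other genes, among them the pseudogene DBF4P1, and of those of GINS4, 30.1% do.

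The clamp and the small subunits of its loader rose, and the large subunit fell. PCNA (chromosome 20, 5114953 to 5126622, minus strand), the ring that holds polymerases on DNA, was at 84.07 and 80.89 FPKM in the knockdown libraries and at 47.16 and 46.33 in the SCR libraries, a log2 fold change of 0.81 (SE 0.0356, adjusted p = 0.000538, limma). RFC5 (chromosome 12, 118016661 to 118032239, plus strand), at 26.64 and 24.82 FPKM against 11.17 and 11.08, changed by 1.14 (SE 0.0457, adjusted p = 0.000466, limma). RFC4 (chromosome 3, 186789892 to 186806695, minus strand) was at 35.41 and 34.72 FPKM against 15.82 and 17.24 and changed by 1.04 (SE 0.0521, adjusted p = 0.000652, limma). In all of these genes the groups were well apart, and RFC3 (1.11) and RFC2 (0.99) moved by similar amounts. RFC1 (chromosome 4, 39287449 to 39366381, minus strand) encodes the large subunit that makes the loader specific for PCNA. It was at 17.39 and 16.67 FPKM in the knockdown libraries and at 22.75 and 22.84 in the SCR libraries, so that both knockdown libraries were lower, and its log2 fold change was -0.40 (SE 0.035, adjusted p = 0.00207, limma), the largest fall of the 48 members. The median of this role was 1.01.

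Among the polymerase genes both primase subunits had the largest log2 fold changes on the deposited scale, whereas POLE had the largest once GC and length trends were removed. PRIM1 (chromosome 12, 56731262 to 56752362, minus strand), the catalytic subunit of primase, which lays the RNA primers, was at 14.18 and 15.44 FPKM in the knockdown libraries and at 5.2 and 5.96 in the SCR libraries. This was a level 2.65 times as high, without overlap, and the log2 fold change of 1.27 (SE 0.0794, adjusted p = 0.000985, limma) was the largest rise of the 48 members on the deposited scale, though not with GC and length trends removed (0.86). PRIM2, the regulatory subunit, changed by 1.05, POLA2 by 0.77 and POLA1, the catalytic subunit of polymerase alpha, by 0.59. Both subunits of the leading-strand polymerase epsilon in the set rose, POLE by 0.73 and POLE2 by 0.75. The subunits of polymerase delta, which copies the lagging strand, went different ways. POLD3 rose by 0.68 on the log2 scale. POLD1, the catalytic subunit, was at 12.82 and 11.01 FPKM against 10.88 and 10.37 in the SCR libraries, a small gap that did not pass the test (0.15, 95% interval -0.09 to 0.39, adjusted p = 0.214, limma), although it did with GC and length trends removed (0.36, adjusted p = 0.0108, limma). POLD2 (chromosome 7, 44114680 to 44123570, minus strand), the most abundant polymerase gene of the set, was at 62.86 and 59.9 FPKM in the knockdown libraries and at 71.63 and 69.6 in the SCR libraries. It was lower in both knockdown libraries, by -0.20 on the log2 scale (SE 0.0404, adjusted p = 0.0194, limma), and this call was lost when any 1 of the 4 libraries was left out, with changes from -0.23 to -0.17. Of the 50-base stretches, 27.4% of those of PRIM1, 31.3% of those of PRIM2 and 55.2% of those of POLA2 occur in other genes. Whether this affects their FPKM was not tested.

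Single-strand binding genes rose and the ligase did not. RPA2 (chromosome 1, 27891524 to 27914797, minus strand), a subunit of the complex that covers single-stranded DNA, was at 57.2 and 56.53 FPKM in the knockdown libraries and at 26.3 and 27.67 in the SCR libraries. The groups did not overlap, and the log2 fold change was 1.05 (SE 0.0386, adjusted p = 0.000414, limma). RPA3 changed by 0.79, FEN1, the nuclease that trims the flaps of lagging-strand fragments, by 0.66 and RPA1 by 0.37, all past the test. LIG1, the ligase that seals those fragments, was at 5.1 and 4.88 FPKM against 5.42 and 5.55. Both knockdown libraries were the lower ones, but the change of -0.11 (95% interval -0.22 to -0.01) was not called after adjustment (adjusted p = 0.0602, limma). With median-ratio scaling it was called lower (-0.15).

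All 4 genes of nucleotide supply rose, the subunits of ribonucleotide reductase most. RRM2 (chromosome 2, 10122568 to 10131419, plus strand), the small subunit, whose protein is made in S phase, was at 69.1 and 69.81 FPKM in the knockdown libraries and at 33.15 and 31.05 in the SCR libraries, a log2 fold change of 1.09 (SE 0.044, adjusted p = 0.00047, limma). RRM1, the large subunit, changed by 0.95. TYMS, which makes thymidylate and had the highest mean level of all members, was at 82.07 and 85.03 FPKM against 64.49 and 64.24, a change of 0.37 (SE 0.0335, adjusted p = 0.00222, limma). TK1, the thymidine salvage kinase of dividing cells, was at 50.16 and 50.13 FPKM against 46.05 and 46.07 and changed by 0.12 (SE 0.0279, adjusted p = 0.0281, limma). The groups did not overlap for any of these genes, yet the gap was small for TK1, whose call was lost in 8 of the 11 alternative settings. About 55.1% of the stretches of TYMS occur in other genes, mainly ENOSF1 and TYMSOS on the opposite strand, and 29.7% of those of RRM2, among them its pseudogenes. Whether the counting used strand is not given in the sources used here.

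Of the G1/S regulators, E2F1 and cyclin E2 rose and cyclin E1 did not. E2F1 (chromosome 20, 33675486 to 33686404, minus strand), an activating transcription factor of S-phase genes, was at 52.49 and 49.48 FPKM in the knockdown libraries and at 24.17 and 23.93 in the SCR libraries. The knockdown level was 2.12 times as high, with no overlap, a log2 fold change of 1.05 (SE 0.0417, adjusted p = 0.000462, limma). E2F2, another activator, changed by 0.79 and UHRF1, which guides maintenance methylation to new DNA, by 0.39. Of the 50-base stretches of UHRF1, 26.0% also occur in other genes. CCNE2, a cyclin that activates CDK2, changed by 0.84, with 48.2% of its stretches shared with INTS8. CCNE1, the related cyclin, was at 6.73 and 6.76 FPKM against 7.95 and 7.16. Its knockdown values were the lower ones, and the change of -0.14 (95% interval -0.30 to 0.02) did not pass the test (adjusted p = 0.108, limma).

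Because FPKM is scaled by length, the RNA levels of the subunits of a complex can be set side by side within a library. Base composition and shared stretches also differ between genes, so an order between genes is approximate, and protein was not measured here. Each subunit was divided by the geometric mean of its partners, and 4 further ratios were formed, all chosen after the values had been seen, so they are descriptions. With 2 libraries a group the exact permutation test cannot go below p = 0.333, and no test is given. MCM7 was at 1.53 and 1.55 times that of MCM2 to MCM6 in the knockdown libraries and at 0.963 and 0.966 times in the SCR libraries, so it went from near the level of its partners to the most abundant of the 6 subunits. RFC1 was at 0.60 and 0.592 times that of RFC2 to RFC5 in the knockdown libraries and at 1.76 and 1.73 times in the SCR libraries. The order thus turned over, with the large subunit above its partners in SCR and below them in the knockdown. DBF4 over CDC7 was 1.78 and 2.06 against 1.09 in both SCR libraries (1.095 and 1.085). CDT1 over GMNN, the gene of its inhibitor, was 1.18 and 1.13 against 0.505 and 0.566. In FPKM it thus went from below GMNN to just above it. PRIM1 over POLA1 was 2.18 and 2.27 against 1.32 and 1.42, and POLD3 over POLD2 was 0.105 and 0.119 against 0.0518 and 0.0585. None of these ratios had overlapping groups, but neither did most other subunit ratios. GINS4 was at 0.948 and 0.947 times its partners against 0.725 and 0.686, and RPA1 at 0.515 and 0.563 against 0.812 and 0.784. By FPKM, both knockdown libraries lay above both SCR libraries for 39.7% of all genes and below them for 35.8%. Each of the ratios kept its direction after trends with GC content and transcript length were removed. The ratio of the groups went from 1.60 to 1.70 for MCM7 and from 0.342 to 0.372 for RFC1. It went from 1.63 to 1.27 for PRIM1 and from 2.16 to 3.27 for CDT1 over GMNN. Among subunits relative to their partners, the libraries overlapped only for POLE, POLE2, GINS1, GINS2, POLD1, PRIM2, RPA3 and MCM6.

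**Figure D3:**
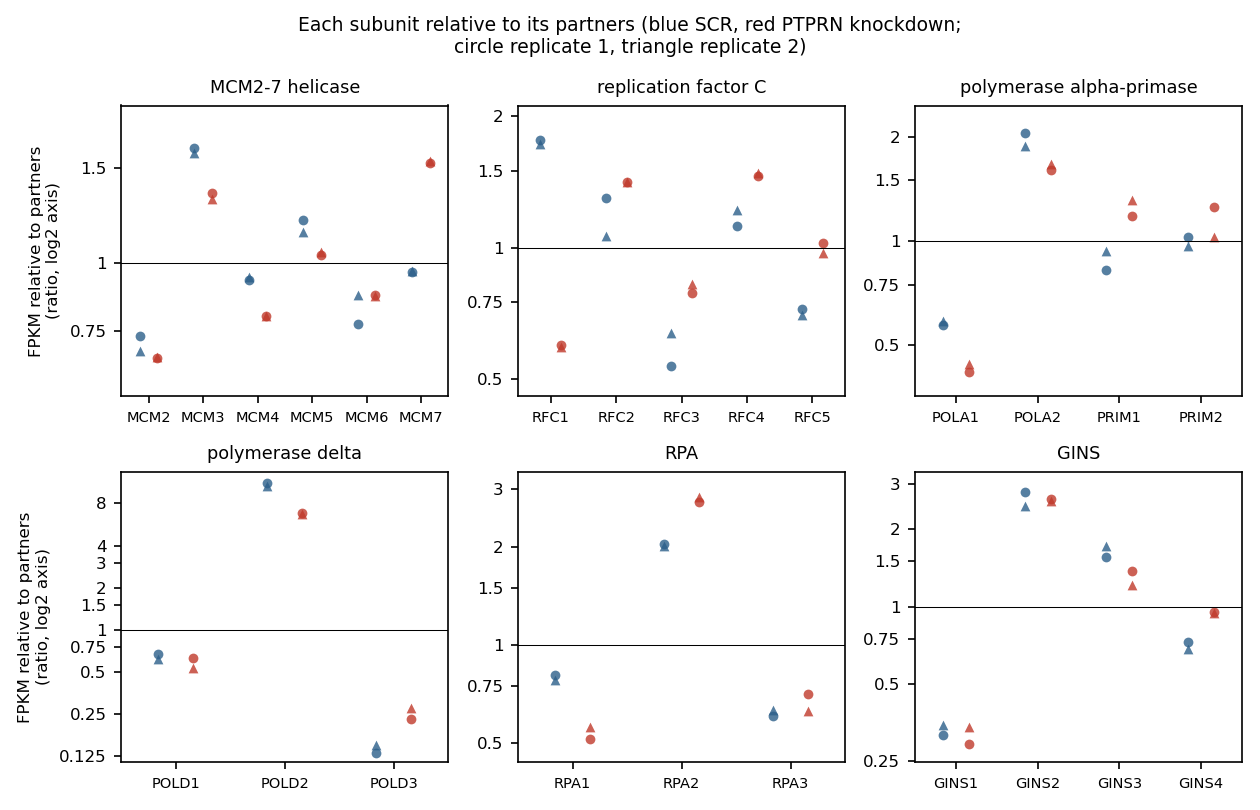
FPKM of each subunit divided by the geometric mean FPKM of its partners in the same library (log2 axis, with a scale of its own in each panel), for 6 complexes, PTPRN knockdown in red and SCR in blue. MCM7 moves from 0.963 and 0.966 to 1.53 and 1.55, and RFC1 from 1.76 and 1.73 to 0.60 and 0.592.

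The upstream sequence of the members was searched for letters known from S-phase promoters. RefSeq promoters of 300 bases, 250 before the annotated start and 50 after it (GRCh38.p14), were matched by gene for 41 of the 48 members, with 54 promoter entries. The E2F motif was taken as TTTCCCGC, TTTCGCGC, TTTGCCGC or TTTGGCGC on either strand. It was present in 23 of the 54 member promoters (42.6%) and in 3.3% of all 35116 promoters, or in 22 of 41 members (53.7%) and 6.0% of the 13258 tested genes with a promoter. CCAAT on either strand was in 58.5% of the members and 43.0% of the tested genes, and TTTGAA, the core of the CHR motif of genes of late cell cycle, was in 4.9% and 15.1%. The 22 members with the E2F motif had a median log2 fold change of 0.68, with 20 that rose. The 19 without the E2F motif had a median of 0.83, with 15 that rose. No match in this window says nothing about binding of E2F factors.

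Promoters are shown for 3 members that rose past a fold change of 2 and hold the E2F letters, MCM7 (chr7:100101348-100101647, minus strand), CDT1 (chr16:88803539-88803838, plus strand) and E2F1 (chr20:33686336-33686635, minus strand), and for the members that fell, RFC1 (chr4:39366313-39366612, minus strand) and POLD2 (chr7:44123499-44123798, minus strand), which do not hold them. The sequences run 5′ to 3′ in the direction of transcription, and capitals mark E2F and CCAAT matches, some on the opposite strand and so in reverse complement. In MCM7 the E2F matches begin 187 and 9 bases before the start, and the last base of the second is also the first of a CCAAT. The match in CDT1 begins 35 bases before the start, and those in E2F1 begin 33 and 20 bases before it. RefSeq lists 3 promoters for MCM7, and the E2F letters are in the one shown. The promoters shown do not stand for all members. MCM10, RFC4, RFC5, PRIM1 and RRM2 also rose past the stricter limits and have no E2F match, whereas GMNN and LIG1, not called, have one.
MCM7: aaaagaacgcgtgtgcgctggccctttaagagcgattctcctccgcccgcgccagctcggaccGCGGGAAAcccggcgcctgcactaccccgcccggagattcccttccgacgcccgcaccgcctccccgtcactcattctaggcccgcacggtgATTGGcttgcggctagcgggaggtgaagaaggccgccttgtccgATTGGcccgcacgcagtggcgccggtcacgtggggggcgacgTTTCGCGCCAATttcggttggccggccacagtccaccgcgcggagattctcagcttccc
CDT1: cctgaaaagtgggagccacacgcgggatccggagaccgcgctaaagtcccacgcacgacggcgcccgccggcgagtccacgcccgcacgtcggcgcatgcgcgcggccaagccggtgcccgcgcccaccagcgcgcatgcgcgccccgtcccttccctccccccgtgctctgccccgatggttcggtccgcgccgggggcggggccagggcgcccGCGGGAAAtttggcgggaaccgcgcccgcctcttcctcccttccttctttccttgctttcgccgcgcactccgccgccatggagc
E2F1: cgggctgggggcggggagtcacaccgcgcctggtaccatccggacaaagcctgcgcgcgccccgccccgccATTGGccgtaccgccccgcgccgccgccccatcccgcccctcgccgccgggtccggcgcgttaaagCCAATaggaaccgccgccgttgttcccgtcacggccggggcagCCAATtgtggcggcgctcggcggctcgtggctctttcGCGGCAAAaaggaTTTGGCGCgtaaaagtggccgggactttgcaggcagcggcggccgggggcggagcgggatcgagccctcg
RFC1: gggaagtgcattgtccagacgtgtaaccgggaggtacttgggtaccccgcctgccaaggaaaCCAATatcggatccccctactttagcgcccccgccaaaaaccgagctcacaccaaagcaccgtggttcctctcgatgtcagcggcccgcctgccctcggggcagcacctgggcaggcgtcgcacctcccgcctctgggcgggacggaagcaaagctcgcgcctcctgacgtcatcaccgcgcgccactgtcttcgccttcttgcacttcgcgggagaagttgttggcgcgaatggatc
POLD2: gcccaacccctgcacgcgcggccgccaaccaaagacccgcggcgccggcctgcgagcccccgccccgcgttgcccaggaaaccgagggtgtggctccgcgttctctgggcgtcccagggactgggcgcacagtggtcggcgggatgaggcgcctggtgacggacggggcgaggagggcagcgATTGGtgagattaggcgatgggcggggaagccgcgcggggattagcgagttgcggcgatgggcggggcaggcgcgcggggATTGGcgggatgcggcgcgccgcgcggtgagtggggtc

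Other genes of the same processes had a lower median than the members, a difference that was not tested. The 4 lists of replication, nucleotide supply, chromatin assembly and the E2F and RB family hold 64 genes. Of these, 42 rose (65.6%), 7 fell and 15 did not pass the test, whereas 30.8% of all genes tested rose and 27.1% fell. The median log2 fold change of the 64 genes was 0.39, against 0.73 for the members. Among 29 other replication genes, 19 rose and 2 fell, with a median of 0.41. TIPIN, a fork protection factor, was at 17.11 and 16.17 FPKM against 4.4 and 5.51 (log2 fold change 1.57, SE 0.107, adjusted p = 0.00116, limma), and DONSON, which helps to assemble the helicase, was at 17.48 and 16.71 against 7.66 and 7.89 (1.04, SE 0.0384, adjusted p = 0.000414, limma). Both were well above SCR in each knockdown library. RNASEH2B (-0.51) and RNASEH2C (-0.26), subunits of an RNase that removes ribonucleotides from DNA, fell, while RNASEH2A, the catalytic subunit, rose by 0.71.

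Among 10 other genes of nucleotide supply, 7 rose (70%, against 30.8% of all genes tested) and 2 fell (20%, against 27.1%). The median was 0.24. SAMHD1, which breaks down deoxynucleotides and so acts against supply, was at 10 and 9.45 FPKM against 3.22 and 3.44, a change of 1.31 (adjusted p = 0.00041, limma). Its libraries did not overlap between the groups. The fallers were TK2, the mitochondrial thymidine kinase (-0.81), and SHMT1 (-0.51). Of 9 genes of chromatin assembly and maintenance methylation, 7 rose (77.8%), with a median of 0.47. They were led by CHAF1B (0.81) and ASF1B (0.79), which are histone chaperones. HELLS (-0.15) and ASF1A (-0.04) did not pass the test.

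The 16 genes of the E2F and RB family and the S-phase kinase were divided, with a median of 0.28. Of these, 9 rose (56.2%, against 30.8% of all genes tested) and 3 fell (18.8%, against 27.1%). E2F7 is among those that rose, though at 0.08 and 0.07 FPKM against 0 in both SCR libraries. CDC25A, the phosphatase that activates CDK2, was at 10.53 and 10.9 FPKM against 2.9 and 2.96, a change of 1.58 (SE 0.0335, adjusted p = 0.000242, limma). RBL1, which encodes the RB relative p107, was at 15.57 and 16.08 FPKM against 5.6 and 5.65, a change of 1.34 (adjusted p = 0.000265, limma). Both were higher in each knockdown library than in any SCR library. RBL2, which encodes p130, the relative typical of resting cells, changed by -0.39, E2F3 by -0.50 and FBXW7, part of the ligase that degrades cyclin E, by -0.43, all past the test. RB1 (-0.04), E2F4 (-0.07) and E2F6 (0.04) did not pass it, and the kinase CDK2 rose by 0.77.

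Genes of mitosis, which follow S phase in the cycle, were higher in the knockdown libraries too. Of 25 such genes, 23 rose and 0 fell at an adjusted p of at most 0.05 (limma), also at an unadjusted p under 0.05. The median log2 fold change was 0.90. The share that rose was 92%, against 30.8% of all genes tested and 41.1% of those whose mean FPKM reached 1. By the adjusted test 27.1% of all genes fell. CCNB1, the mitotic cyclin, was at 103.53 and 97.96 FPKM against 40.06 and 40.67 (1.30, adjusted p = 0.000354, limma), and AURKA, a spindle kinase, was at 71.05 and 67.87 against 25.3 and 24.58 (1.44, adjusted p = 0.00031, limma). UBE2C (1.18) and TTK (1.03) passed the stricter thresholds as well. Neither TOP2A (0.05) nor CENPF (0.14) passed the test. The difference between the mitosis genes and the members was not tested.

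**Figure D4:**
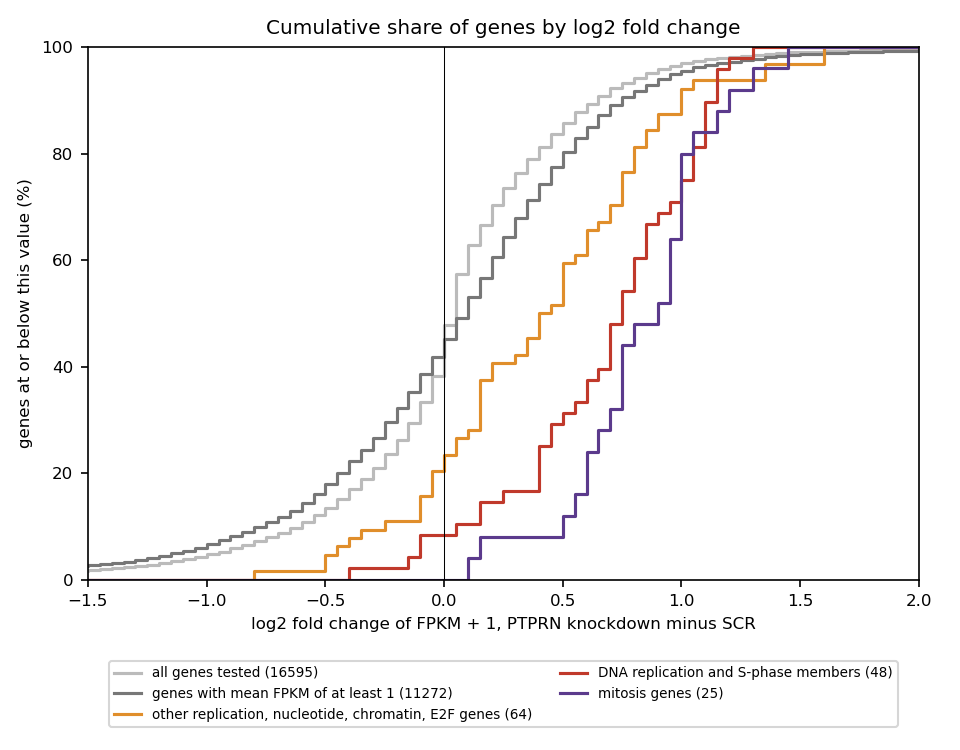
Cumulative percent of genes (y axis) at or below each log2 fold change, PTPRN knockdown minus SCR (x axis). Curves are drawn for the 48 members, the 64 genes of the 4 other S-phase lists, the 25 genes of mitosis, all genes tested and those whose mean FPKM reached 1. The medians are 0.73, 0.39, 0.90, 0.01 and 0.06. The curve of the members lies between those of the other S-phase lists and of mitosis over most of its course.

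Base composition and transcript length were set against the size of the change. Over the 48 members, Spearman's rank correlation of the log2 fold change was -0.23 with the GC content of the transcript, -0.19 with its length and -0.05 with the mean FPKM, given as descriptions of genes that share the same libraries. When trends on GC content and length over all genes were removed, a setting added after the data had been seen, the median of the members was 0.56 and that of all genes -0.03. MCM7 (1.26), CDT1 (1.28), E2F1 (1.19) and GINS4 (1.04) still passed the stricter thresholds, whereas RRM2 (0.97), RFC5 (0.92), MCM10 (0.90), PRIM1 (0.86), RPA2 (0.84) and RFC4 (0.74) came to less than a fold change of 2. PCNA went from 0.81 to 0.49 and POLE from 0.73 to 0.94. GMNN, at 0.05 before, came to -0.31 (adjusted p = 0.00719, limma) and CDC7, at 0.22 before, to -0.03 (adjusted p = 0.646, limma), so that neither direction held in this setting. POLD1 and CCNE1 (-0.22) passed the test in it. Which of these scales is nearer to the RNA in the cells was not tested.

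**Figure D5:**
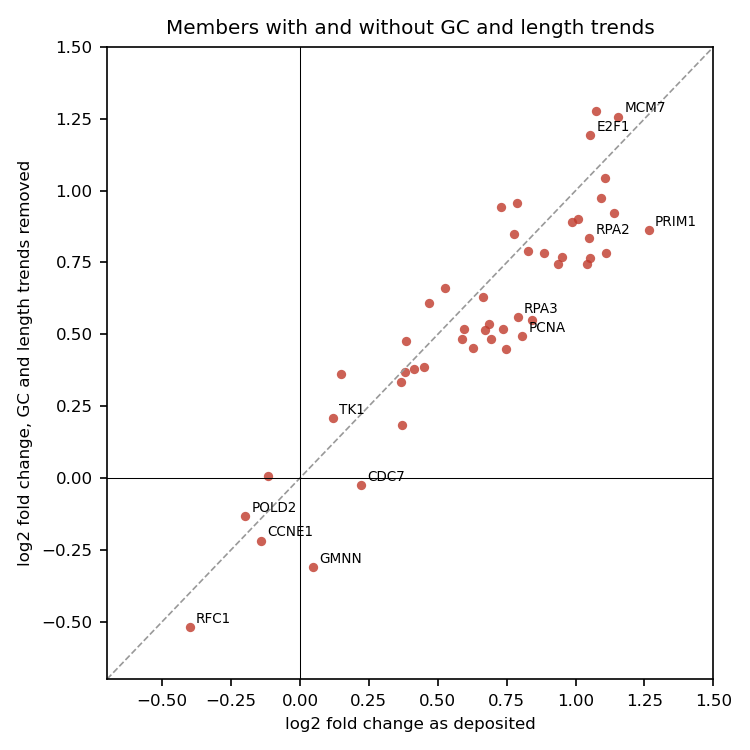
Log2 fold change of each of the 48 members before (x axis) and after (y axis) removal of trends on GC content and transcript length. Most points lie below the line of equality, and the median goes from 0.73 to 0.56.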

How the data were processed

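RNA of 4 U87 libraries was sequenced in single-end reads of 50 bases on a BGISEQ-500 after preparation with the NEBNext Ultra kit. The authors deposited FPKM per gene and library. The submitters' processing notes name HISAT2 2.1.0 and hg19, yet 96.92% of matched gene positions overlap RefSeq GRCh38.p14, as do those of all 48 members. The counting program and annotation are not given in the sources used here. The same tables hold the authors' own comparisons (fold changes with p-values and corrected p-values), which were not used.

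Of the listed genes, 16595 were above 0 somewhere, and these were tested on log2(FPKM + 1) with limma 3.58.1 (R 4.3.3), with the group as the only term and Benjamini-Hochberg adjustment over all of them. Fold changes on this scale understate those of low genes. Reads were estimated from FPKM steps, and shared stretches from GENCODE 29 transcripts. Alternatives were another pseudocount, a minimum FPKM, quantile and median-ratio scaling, an eBayes trend, a replicate block, each library left out and removal of GC and length trends.

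The members and all lists were chosen with earlier results of these data known. Values in each library are given for members past a fold change of 2 and an adjusted p of 0.001. They are also given for the highest and the most changed member of each role and for the 3 largest rises and falls. From the other lists, the rule took the genes past those thresholds and the 2 most changed. Of these, UBE2C, TTK, CHAF1B and ASF1B are given by log2 fold change only. GMNN, DBF4, CDC7, POLD1, LIG1, TK1 and the other genes named with values were chosen after their values were seen. A gene that this rule picks is not reported here.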

Additional observations from a re-analysis of the deposited data

How the results depend on the processing

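The number of members that rose, 42, was 41 or 42 under every alternative that kept the 4 libraries and 36 to 37 with 1 library left out, where the lone library of a group is assumed to vary like the other group. The number that fell, 2, was 3 with median-ratio scaling, where LIG1 was added, 1 to 2 with 1 library left out and 4 (RFC1, GMNN, CCNE1 and POLD2) with GC and length trends removed. The 10 members past a fold change of 2 and an adjusted p of 0.001 became 0 with a pseudocount of 0.1, 0 with the replicate block, 0 with any library left out and 4 with GC and length trends removed. In the settings that gave 0, 11 to 16 members had a fold change of at least 2 irrespective of p, against 12 with the settings of the report. The median of 0.73 was 0.82 with a pseudocount of 0.1, 0.69 with median-ratio scaling, 0.69 to 0.76 with 1 library left out and 0.56 with GC and length trends removed. The last of these settings was added after seeing the data.

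Over 61 named genes and 11 alternatives, 633 of 671 comparisons kept direction and side of the 0.05 threshold, 30 lost the call, 4 gained it and 4 changed direction. The last were GMNN at -0.0278 without SCR replicate 2 (-0.0278 to 0.1242 with 1 library left out) and at -0.31 with GC and length trends removed, and, with those trends removed, CDC7 at -0.0258 and LIG1 at 0.0065. With 1 library left out, calls of 10 members were lost at least once, without a change of direction (MCM5, CDC7, GINS1, GINS3, RFC2, PRIM2, POLD2, RPA3, TK1 and UHRF1), and CCNE1 passed the test without SCR replicate 2 (-0.21). The cause was not tested.

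Replicates of different groups share only a number, with a correlation of 0.064 between their differences over 11272 genes. The replicate block left 41 members higher and 2 lower. The member call lost with it was TK1. With 2 libraries a group, intervals rest on 3.72 degrees of freedom per gene, of which 1.72 are shared.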
